A study of Danio rerio with 10 samples.

Results

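The wild-type side of the study was the baseline transcriptome of whole zebrafish (Danio rerio) larvae at 120 hours post fertilization (hpf), measured in 5 of the 10 libraries of the series. These 5 libraries carry the genotype aldh2.1+/+, an intact copy of the mitochondrial aldehyde dehydrogenase gene aldh2.1, in the line Tg(fli1:EGFP), whose transgene marks blood vessels with a green fluorescent protein. Each library was made from 1 clutch of 50 pooled larvae that were raised in egg water, received no experimental treatment and were anaesthetized with tricaine before they were collected and frozen, so spread between libraries is spread between pools, and differences between single larvae could not be seen. The libraries are named here WT1, WT2, WT3, WT5 and WT6 after the replicate numbers in the labels. The labels do not call them clutches, and that each is 1 clutch is taken from the paper. The other 5 libraries of the series, also at 120 hpf and in the same line, come from aldh2.1-/- larvae that carry a 5-base deletion from CRISPR/Cas9, and they appear below only where a wild-type value is set against them.

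At this stage a zebrafish larva swims freely, sees and hunts by sight, and its yolk is nearly used up. The trunk is filled with fast skeletal muscle, the eyes are large relative to the body, the brain and retina hold many differentiated neurons, and liver, pancreas and intestine have begun to work. A whole-body library mixes the RNA of all these tissues, so a tissue is seen through genes that are used mostly by that tissue. In such a mixture fewer cells of a type and less RNA per cell cannot be told apart.

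For each library the deposited tables hold an estimated read count and a TPM value (a transcript abundance scaled for length, with the same total in each library) for 32520 genes with Ensembl identifiers. The wild-type libraries held between 20192749 and 20435791 counts. The 10 pairs of them all differed by more than counting error (chi-square of 18.2 to 84.3 for each degree of freedom), and the lowest Pearson r of log values across genes was 0.980. The name table gives the symbol aldh2.2 to one gene and ALDH2 to its close copy (ENSDARG00000089924), which was taken here as aldh2.1. ALDH2 had TPM values of 6.10, 7.10, 6.80, 6.06 and 6.50 in WT1, WT2, WT3, WT5 and WT6, against a mean of 2.76 ± 0.985 (SD, n = 5) in the mutant libraries. The gene aldh2.2 stood at 8.70, 9.57, 8.93, 7.32 and 8.88 TPM in the wild type, against a mean of 1.15 ± 0.133 (SD, n = 5) in the mutant. Both were lower in the mutant, aldh2.2 by the larger factor, so these levels do not tell which symbol is the targeted gene.

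Wild-type larvae expressed 19690 genes at a mean TPM of 1 or more, which is 60.5% of the genes in the tables. Of these, 17614 reached TPM 1 in every wild-type library, and 1247 genes reached it in exactly 1 library. A further 4120 genes had a count of 0 in all 5 libraries. By library, the number of genes at TPM 1 or more was 19236 in WT1, 19576 in WT2, 18984 in WT3, 19111 in WT5 and 19718 in WT6. The mean of 19325 ± 311 (SD, n = 5) was below the 19546 ± 599 (SD, n = 5) of the mutant libraries by less than the spread between clutches (difference -221 genes, two-sided exact permutation test, p = 0.492). With 5 against 5 libraries this test cannot give a p below 0.00794.

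Most of these genes were expressed at low levels. A mean TPM between 1 and 10 was found for 12666 genes, between 10 and 100 for 6220 genes, between 100 and 1000 for 668 genes, and at 1000 or more for 136 genes. Those 136 genes held 60.01% of all TPM, whereas all genes below TPM 1 together held 0.284%. The 10 genes with the highest mean held 27.0% of TPM in WT1, 26.0% in WT2, 36.6% in WT3, 31.8% in WT5 and 29.5% in WT6, a mean of 30.2% ± 4.24 (SD, n = 5). WT3 was the most concentrated library, in which 36 genes sufficed for 50% of TPM, against 57 to 82 genes in the other 4 libraries.

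The most abundant messages came from the mitochondrial genome, which encodes 13 subunits of the respiratory chain and ATP synthase. Of the 30 genes with the highest mean TPM, 12 were mitochondrially encoded and held 30.2% of TPM. Another 7 were on the skeletal muscle list (6.33%), 2 each were ribosomal proteins (1.15%), translation factors (0.872%) and photoreceptor genes (0.964%), 1 was a lens crystallin (0.634%), and 4 were on no list (1.83%). Among the first 100 genes, 45 encoded cytosolic ribosomal proteins and held 9.91% of TPM, and 13 mitochondrial, 11 muscle, 5 lens and 5 photoreceptor genes followed. The mutant libraries shared 96 of these 100 genes in their own first 100.

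The first place belonged to mt-atp8, a short subunit of ATP synthase, with 89539 TPM in WT1, 81897 in WT2, 153559 in WT3, 122354 in WT5 and 108266 in WT6. This rank rests on the scaling for length. In mt-atp8, 1 TPM corresponded to 0.617 counts, against 26.6 counts in MT-CO1 and a median of 33.7 over the expressed genes, and mt-atp8 held only 0.337% ± 0.0985 (SD, n = 5) of the counts. By counts the first place went to MT-CO1, a catalytic subunit of cytochrome c oxidase, with 23334 ± 3466 TPM and 3.05% of the counts, and mt-atp8 was at rank 30. MT-CO2, MT-ATP6 and MT-CO3 followed mt-atp8 with mean TPM values of 36179 ± 5199, 35775 ± 5651 and 30274 ± 4014 (SD, n = 5). Of the 30 leading genes by TPM, 23 were also among the 30 leading genes by counts.

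The leading nuclear genes encode the contractile machinery of muscle. The gene actc1b, a muscle actin, had 19200.2 TPM in WT1, 17993 in WT2, 13117 in WT3, 13468 in WT5 and 16081 in WT6. MYL1, a myosin light chain, had 14773, 14721, 9559, 10837 and 12571 TPM in the same order of libraries. The calcium buffers pvalb1 and pvalb2, parvalbumins of fast muscle, averaged 11399.8 ± 2246 and 9248 ± 1716 TPM (SD, n = 5). On the TPM scale WT1 and WT2 were the highest libraries in all 4 genes and WT3 was the lowest. On the scaled counts used further below, WT1 and WT2 were also the highest, but only MYL1 was lowest in WT3. There actc1b and pvalb2 were lowest in WT5 and pvalb1 in WT6. The troponins TNNT3 and TNNC2 and the tropomyosin tpma, which control the thin filament, averaged between 4626 and 4929 TPM.

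The eye contributed the next tissue genes. CRYBB1, a structural beta crystallin of the lens, had 6115, 6635, 5489.8, 6896 and 6581 TPM in WT1, WT2, WT3, WT5 and WT6. OPN1SW, a short-wavelength cone opsin, had 3713, 4329, 3746, 4319 and 3740.2 TPM. The remaining leading genes were ones used by most cells, such as the elongation factor eef1a1l1 (5307 ± 335 TPM), the ribosomal proteins RPL35 and RPS10 (7482 ± 964 and 4027 ± 516 TPM) and ppiaa, a cyclophilin A (3731 ± 227 TPM, all SD, n = 5). One gene without a symbol, ENSDARG00000080337, stood at rank 18 with 5736 ± 677 TPM. Without a symbol it could match no list, so neither its tissue nor its genome of origin was assigned. Another leading gene outside the lists was MYL11, a fast muscle myosin light chain that the patterns of the muscle list did not match.

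**Figure D1:**
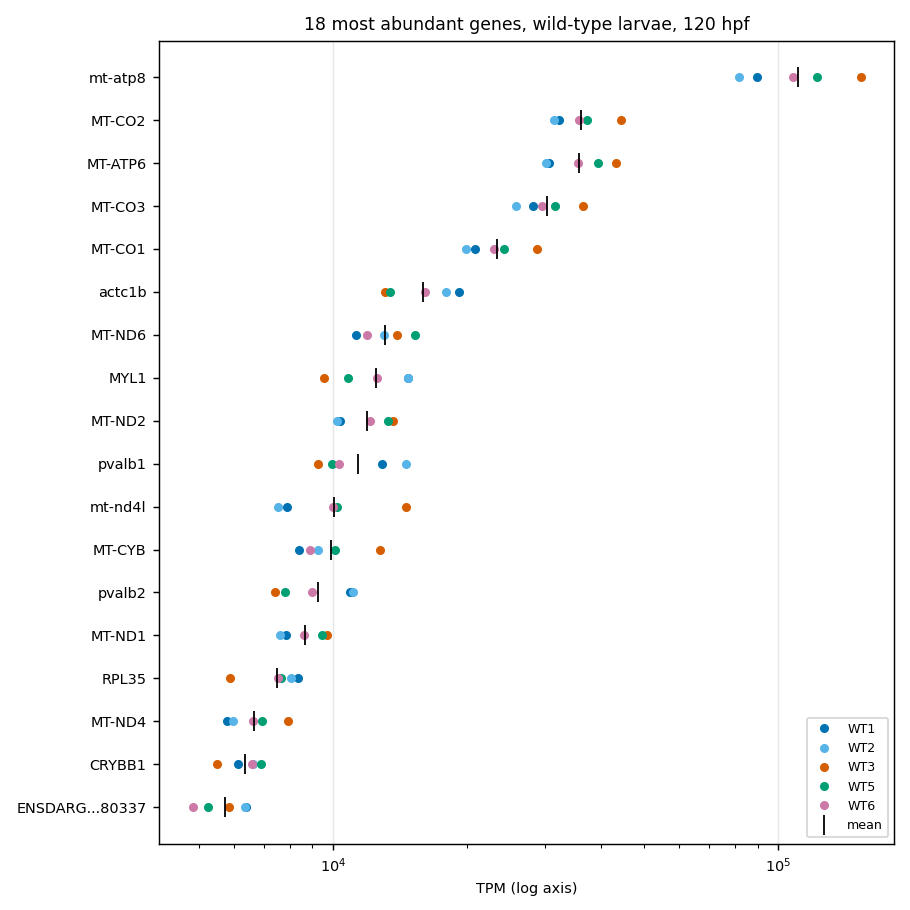
TPM (log axis) of the 18 genes with the highest mean in the 5 wild-type libraries, 1 point per library and a bar at the mean. WT3 (orange) is highest for most mitochondrially encoded genes, with mt-atp8 at 153559 TPM, and lowest on this scale for actc1b, MYL1, pvalb1 and pvalb2. The label shortened with dots is ENSDARG00000080337.

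Tissue lists were used to ask how much of the transcriptome each tissue holds. They comprised 25 tissue lists with 1377 genes and 8 housekeeping lists with 436 genes, each gene counted once, and a share is the summed TPM of a list in percent of all TPM of the library. The housekeeping lists held 49.0% ± 3.84 of TPM, the tissue lists 17.9% ± 1.75, and genes on no list 33.1% ± 2.14 (SD, n = 5). A share of a list depends on which genes were listed, some of which other tissues also use, so it does not measure what a tissue contributes. The choice of unit also matters, since the housekeeping lists held 24.98% of counts where they held 49.0% of TPM.

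Skeletal muscle was the largest tissue list. Its 134 genes held 9.65% of TPM in WT1, 9.63% in WT2, 6.73% in WT3, 7.44% in WT5 and 8.10% in WT6, a mean of 8.31% ± 1.31 (SD, n = 5). Adding 6 muscle genes that the patterns had missed, chosen after seeing the data, raised the mean to 9.56% ± 1.498. With heart and smooth muscle the muscle lists made up 46.7% of the TPM of all tissue lists. The heart alone was small. Its 22 genes held 0.0249% ± 0.00122, with MYBPC3, a sarcomere protein of the heart in mammals, at 125 ± 9.91 TPM and the atrial and ventricular light chain MYL7 at 51.7 ± 7.75 TPM.

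Lens and retina were next and varied little. The 76 lens genes held between 2.49% (WT1) and 2.95% (WT2) of TPM, and the 101 photoreceptor genes between 2.37% (WT3) and 2.71% (WT5). Both lists together amounted to 29.5% of the TPM of the tissue lists. Besides CRYBB1, the most abundant lens messages were CRYGN, crybb1l1 and cryba1l1, all crystallins, with means of 1766 ± 115, 1680 ± 120 and 1500.4 ± 159 TPM (SD, n = 5). In the photoreceptor list the medium-wavelength cone opsin opn1mw1 (2573 ± 224 TPM) and GNGT2, a cone transducin subunit (1580.35 ± 175 TPM), were among the leading genes beside OPN1SW.

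The nervous system held less TPM, spread over more genes. The 184 neuron genes, 179 of them at TPM 1 or more (60.5% over all genes), held 1.68% ± 0.138 of TPM and 3.07% of counts. No single gene led: the most abundant one, the synuclein SNCG, took 6.29% of the list. SNCG had 1092, 1195, 823.8, 1064 and 1094 TPM in WT1, WT2, WT3, WT5 and WT6. Glia held 0.218% ± 0.0132, led by the glutamate transporter SLC1A2 (750.9 ± 96.9 TPM) and the radial glia fatty acid binding protein FABP7 (569 ± 47.6 TPM).

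Liver, intestine and exocrine pancreas held small shares that differed between clutches by a factor of 1.98 or more from the lowest to the highest library. The 155 liver genes held 0.831% of TPM in WT1, 0.764% in WT2, 0.518% in WT3, 0.418% in WT5 and 0.550% in WT6. The 78 intestine genes held 0.351%, 0.259%, 0.142%, 0.103% and 0.164% in the same order, so WT1 had 3.39 times the share of WT5. The 40 genes of the exocrine pancreas, mostly digestive proteases, held 0.0995%, 0.104%, 0.106%, 0.0537% and 0.0976%, with only WT5 apart. Leading genes were the apolipoproteins apoa2 and apoa1b and the liver fatty acid binding protein fabp10a (908.6 ± 259, 817 ± 232 and 690.2 ± 230.0 TPM), the intestinal fatty acid binding protein FABP1 (514 ± 300.4 TPM) and the elastase CELA1 (217 ± 58.0 TPM, all SD, n = 5).

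Skin and skeleton held between 0.1% and 1% of TPM per list. The 90 epidermis genes held 0.777% ± 0.0670 of TPM, with tmsb4x, an actin-binding thymosin also used by other cells, at 1979.8 ± 143 TPM and the keratin krt4 at 1701 ± 387 TPM. Cartilage held 0.138% ± 0.0144, led by the collagen COL2A1 at 271 ± 36.0 TPM. Bone and connective tissue held 0.180% ± 0.0126, led by col1a1a at 375 ± 42.7 TPM. Pigment cells held less, 0.0654% ± 0.00494, led by the melanin enzymes DCT and TYRP1 (153 ± 21.9 and 150.5 ± 9.57 TPM, SD, n = 5).

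Blood, vessels, kidney and immune cells each held less than 0.1% of TPM. The 27 erythrocyte genes held 0.0857% ± 0.00684 and were led by the alpha globin hbae3. The 40 endothelium genes held 0.0256% ± 0.00171, with EFNB2, an ephrin ligand of arteries, at 40.8 ± 4.78 TPM and the transcription factor FLI1 at 30.5 ± 4.10 TPM. Kidney genes held 0.0221% ± 0.00203. Leukocyte genes held 0.00937% ± 0.000722, with lysozyme (lyz) at 10.9 ± 2.63 TPM and 23 of 57 listed genes at TPM 1 or more. Germ cell genes were nearly silent, with 4 of 27 at TPM 1 or more and a share of 0.00115%. Over all 32520 genes, 60.5% had a mean TPM of 1 or more.

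Hormone and neuropeptide genes were measurable although their cells are few. Of the 52 pituitary and hypothalamus genes, 42 had a mean TPM of 1 or more, and of the 13 endocrine pancreas genes, 11 did. Over all 32520 genes that share was 60.5%. The highest was adcyap1b, which encodes the neuropeptide PACAP, at 95.3 ± 9.05 TPM, followed by somatostatin (SST, 56.8 ± 4.49 TPM) and oxytocin (oxt, 46.8 ± 6.94 TPM, all SD, n = 5). Insulin (ins) had 30.1, 17.2, 28.1, 36.2 and 38.0 TPM in WT1, WT2, WT3, WT5 and WT6, so WT2 was the lowest clutch. Corticotropin-releasing hormone (CRH), the first signal of the stress axis, stood at 19.7 ± 0.860 TPM and neuropeptide Y (NPY) at 14.1 ± 2.36 TPM. The orexin gene HCRT, used by a small set of hypothalamic neurons, still reached 4.73 ± 1.37 TPM.

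**Figure D2:**
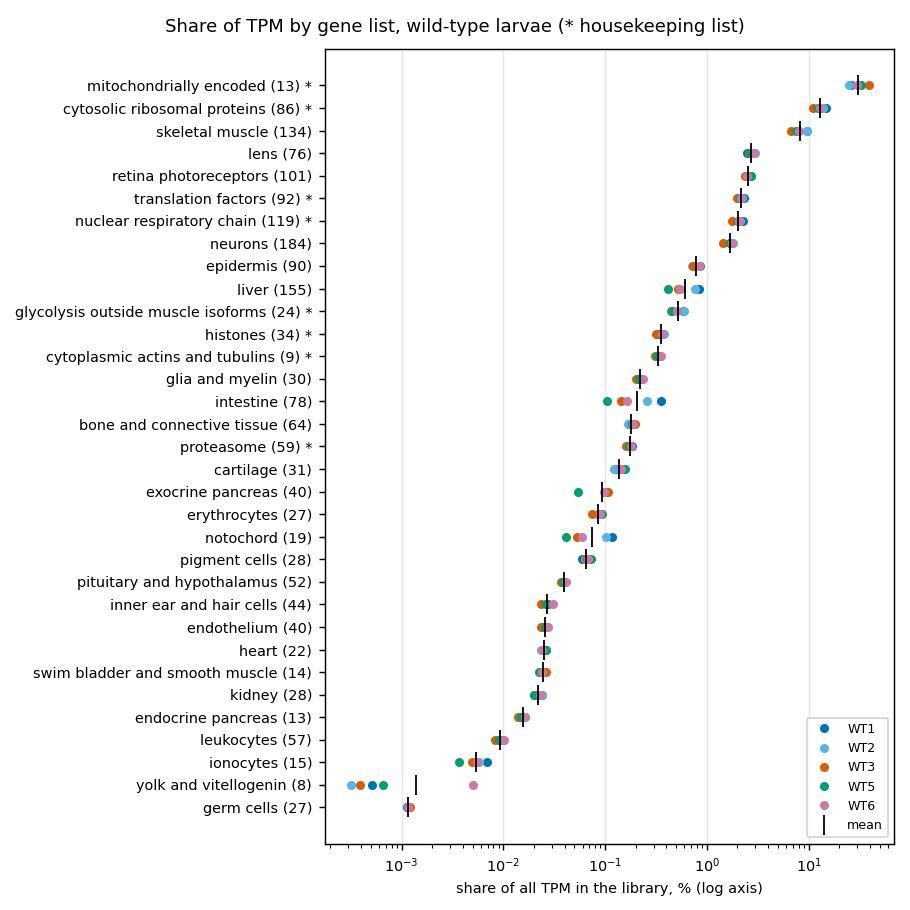
Share of all TPM (log axis, %) held by each of the 25 tissue lists and 8 housekeeping lists (starred) in the 5 wild-type libraries, with the number of listed genes in parentheses and a bar at the mean. Mitochondrially encoded genes lead at a mean of 30.4% and skeletal muscle is the largest tissue list at 8.31%. Intestine, liver and exocrine pancreas spread more between libraries than lens, photoreceptors or neurons, and the yolk list is high in WT6 alone.

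No list share differed between the wild type and the mutant libraries after adjustment. Over 33 lists, a two-sided exact permutation test of the share gave 0 lists at an adjusted p below 0.05 (Benjamini-Hochberg over the 33 lists) and 2 below an unadjusted 0.05. The smallest p, for inner ear and hair cells, was 0.0317 (exact permutation test, adjusted p = 0.599), with 0.0268% ± 0.00249 in the wild type and 0.0311% ± 0.00245 in the mutant. Glia and myelin followed with 0.218% against 0.252% (exact permutation p = 0.0476, adjusted p = 0.599). Without WT1, WT2, WT3 or WT5, or without mutant clutch 1 or 6, both exact permutation p-values were above 0.05. Without mutant clutch 2 or 3 only that of inner ear stayed below it. Without WT6 they were 0.0159 for inner ear and 0.0635 for glia and myelin, and without mutant clutch 5 they were 0.0317 and 0.00794. A p that misses the threshold does not show equal shares, and the muscle share, for example, was 8.31% ± 1.31 in the wild type and 9.62% ± 1.79 in the mutant.

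WT3 had the largest share of mitochondrial messages, at the top of a graded series. The 13 mitochondrially encoded genes held 25.9% of TPM in WT1, 24.9% in WT2, 38.8% in WT3, 32.8% in WT5 and 29.7% in WT6. On the count scale they held between 10.6% (WT2) and 16.8% (WT3). Because TPM sums to the same total in every library, a larger mitochondrial share leaves less for all other genes. Of the 40 lists without the mitochondrial genome, 24 were lowest in WT3 on the TPM scale and 3 on the scale of TPM outside the mitochondrial genome, which leaves out only these 13 genes. On the latter scale muscle held 13.0%, 12.8%, 10.99%, 11.1% and 11.5% in WT1, WT2, WT3, WT5 and WT6, neurons between 2.27% and 2.51%, and ribosomal proteins between 17.8% and 19.9%, and WT3 and WT5 lay next to each other in muscle.

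Differences between clutches were then followed gene by gene, on counts scaled with TMM factors, which bring the bulk of genes to a common level across the 5 libraries. Of the 19690 genes at a mean TPM of 1 or more, 22.5% had their highest scaled count in WT1, 19.0% in WT2, 20.3% in WT3, 20.5% in WT5 and 17.7% in WT6. The lowest scaled count fell in WT1 for 19.6%, in WT2 for 20.9%, in WT3 for 22.0%, in WT5 for 19.6% and in WT6 for 17.9%. Several tissue lists were far from this even spread. Of 60 intestine genes, 50 were highest in WT1 and 48 lowest in WT5. Of 117 liver genes, 68 were highest in WT1 and 68 lowest in WT5.

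Other lists followed other clutches. Of 29 exocrine pancreas genes, 18 were highest in WT3 and 22 lowest in WT5. Of 51 bone and connective tissue genes, 35 were highest in WT3 and 34 lowest in WT2, and 22 of 27 cartilage genes and 44 of 72 epidermis genes were also lowest in WT2. Of 85 ribosomal protein genes, 81 were highest in WT1 and 45 lowest in WT3, and 79 of 117 nuclear genes of the respiratory chain were highest in WT1. In contrast to them, 12 of the 13 mitochondrially encoded genes were highest in WT3 and 11 were lowest in WT2. The genes of a list share tissue and library, so these counts describe 5 clutches and are not independent observations.

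**Figure D3:**
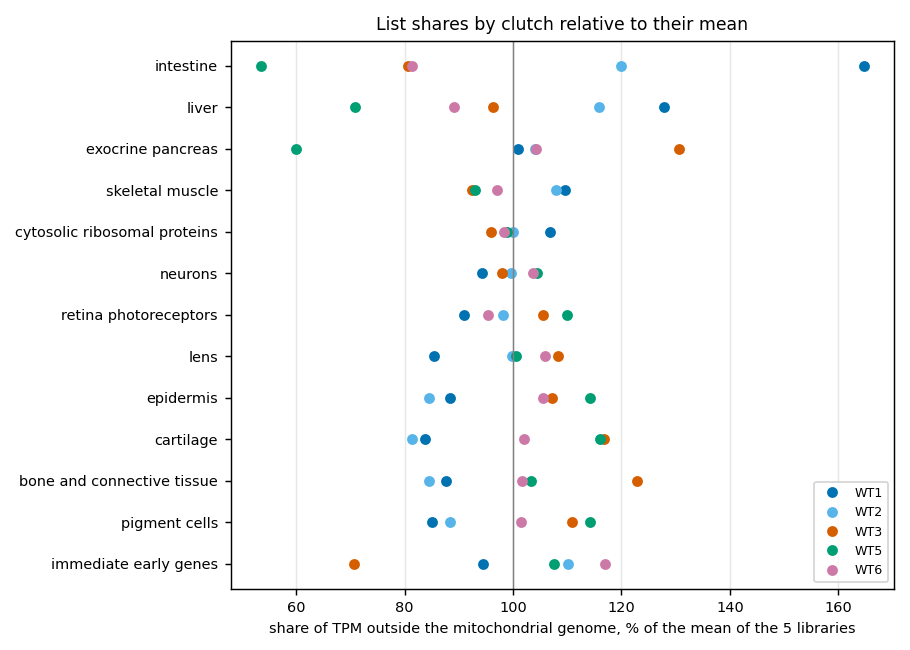
Share of TPM outside the mitochondrial genome for 13 lists, in percent of the mean of the 5 wild-type libraries (100, vertical line), 1 point per library. WT1 (dark blue) lies far above the mean for intestine and liver and WT5 (green) far below it, WT3 (orange) is highest for bone and exocrine pancreas and lowest for immediate early genes, and neurons keep within a narrow band.

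Steadiness between clutches was measured by the coefficient of variation (CV, the SD in percent of the mean) of the scaled counts over the 5 libraries, for the 5927 genes with a mean scaled count of at least 500. These are the better expressed genes, for which counting error is small. The median CV was 6.26%, with quartiles of 4.44% and 8.99%, while counting error alone would give a median of 3.07%. The CV stayed under 10% for 4760 genes (80.3%) and passed 30% for 106 genes (1.79%). Sorted by level into 5 bins, the median CV was 7.15% in the lowest and 6.04% in the highest bin.

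Steadiness differed between the lists, which are read here against the background that 10.0% of the 5927 genes had a CV above 13.1%. Above that mark were 15 of the 16 intestine genes at the floor of 500 counts (of 78 listed), 29 of 32 liver genes (of 155), all 11 exocrine pancreas genes (of 40) and all 13 mitochondrially encoded genes. Their median CVs were 48.2%, 28.1%, 27.0% and 20.7%. Bone and connective tissue and epidermis were intermediate, with 20 of 31 and 16 of 25 genes above the mark and median CVs of 16.1% and 16.0%. Skeletal muscle had 23 of 78 genes and lens 18 of 40 above it (median CVs of 10.1% and 12.2%).

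At the other end, 8 of 139 neuron genes and 0 of 34 proteasome genes passed the mark. Of 81 ribosomal protein genes only 2 passed it, but they were not among the steadiest lists. Their median CV of 9.47% was above the upper quartile of all genes at the floor (8.99%). In WT1, 79 of them were highest, as were 24.5% of all 5927 genes. Neuron genes had a median CV of 5.53% and translation factors 5.94%, below the 6.26% of all genes at the floor. Proteasome genes, with 6.75%, were above it. Of the 40 endothelium genes only 7 were at the floor, too few to set against the background, with a median of 5.15%. Without WT1 the median CV of the intestine genes dropped to 32.6%, and without WT3 that of the mitochondrially encoded genes dropped to 12.9%.

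**Figure D4:**
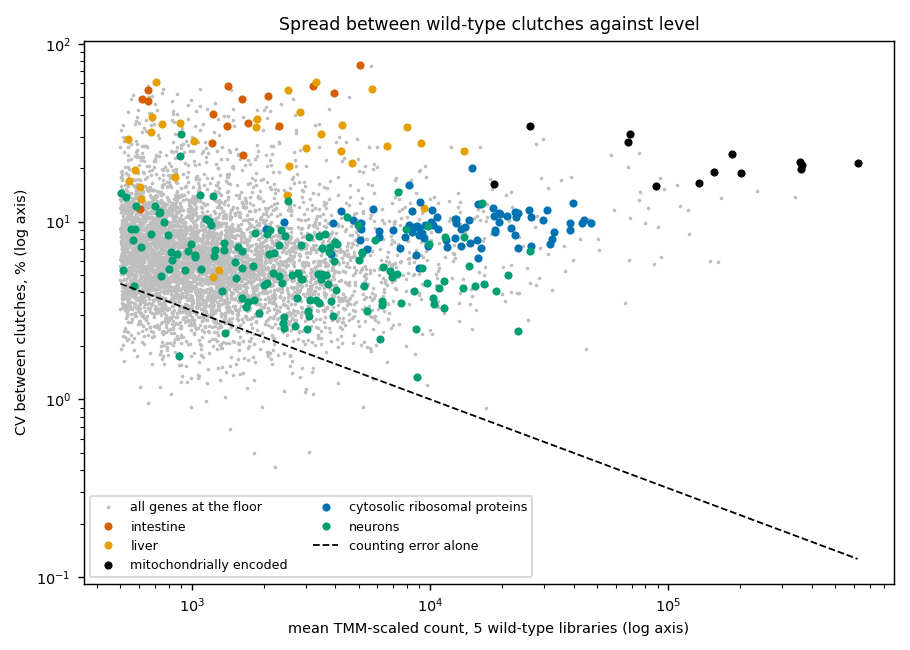
CV between the 5 wild-type clutches (log axis, %) against the mean TMM-scaled count (log axis) for 5927 genes, with 5 lists in colour and a dashed line at the CV that counting error alone would give. Intestine and liver genes lie mostly far above the bulk at a median CV of 48.2% and 28.1%, mitochondrially encoded genes at 20.7%, and neuron genes lie within the bulk at 5.53%.

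The least steady gene was chia.2, an acidic chitinase of the digestive tract, with scaled counts of 11275 in WT1, 5978 in WT2, 2957 in WT3, 1539 in WT5 and 3568 in WT6 (CV 75.5%). The intestinal fatty acid binding protein FABP2 showed the same order, with 7144, 4859, 2604, 1994 and 3094 scaled counts (CV 52.9%). FABP1 had 5849, 4456, 1734, 1686 and 2361 (CV 57.6%). WT1 and WT2 lay above the other 3 libraries in each of these genes.

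Genes of lipid transport and of liver metabolism varied alike. The apolipoprotein apoa1a, a component of high-density lipoprotein, had 9871, 7782, 4028, 1829.6 and 4882 scaled counts in WT1, WT2, WT3, WT5 and WT6 (CV 55.8%). The drug-metabolizing enzyme cyp3a65 had 6501, 4051, 2370.3, 1336 and 2330.4 (CV 61.2%). PCK1, which makes phosphoenolpyruvate in gluconeogenesis, had 1281, 977.1, 278, 319 and 669 (CV 61.0%), so here WT3 and WT5 were both low. The apolipoproteins apoa4b.1, apoa4b.2 and apobb.1, the ileal FABP6, the peptidase ANPEP (ENSDARG00000103878) and the fatty acid ligase ACSL5 were also among the 20 least steady genes, with CVs between 49.2% and 57.6% and the highest value of each in WT1 and the lowest in WT5.

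Keratin and collagen genes among the 20 least steady followed other clutches. The epidermal keratin cyt1l had 3117, 3386, 3350.4, 12979 and 5306 scaled counts in WT1, WT2, WT3, WT5 and WT6 (CV 74.7%), high in WT5 alone, and without WT5 its CV was 26.9%. Another keratin, krt1-19d, had 1187, 1026, 2862, 920.3 and 1267 (CV 55.04%), high in WT3 alone, and without WT3 its CV was 14.2%. COL10A1, a collagen of forming bone in zebrafish, had 468, 298, 1174, 748 and 606 (CV 50.5%), highest in WT3. In contrast to these, the galectin lgals2b, which made up 84.1% of the notochord list, had 7664, 6149.8, 3361, 2235 and 3270.5 (CV 50.1%), highest in WT1 and lowest in WT5 as in most intestine genes, and without it the notochord list held 0.0118% of TPM in place of 0.0745%.

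The 100 least steady of the 5927 genes at the floor included 13 of 16 intestine, 13 of 32 liver, 6 of 25 epidermis, 4 of 11 exocrine pancreas and 4 of 40 lens genes. Another 47 of the 100 were on no list, against 86.1% of the 5927 genes. Of these 100, 58 were highest in WT1 (24.5% of all 5927 genes) and 64 lowest in WT5 (15.1%). The mutant libraries played no part in choosing them. There the same 100 genes had a median CV of 24.4%, against 11.1% for all 5927 genes, and 86 of them lay above that mutant median. Of the 100, 25 were also among the 100 of these 5927 genes that were least steady in the mutant. Single genes differed, since FABP2 had a CV of 52.9% between wild-type and 6.60% between mutant clutches, and lgals2b 50.1% and 8.68%. The order of the lists differed too. In the mutant the median CV was 19.0% for intestine and 18.6% for liver genes. It was higher for photoreceptor (28.3%), lens (27.4%), skeletal muscle (27.3%) and exocrine pancreas genes (35.9%). Whether the clutch spread itself differs between genotypes was not tested.

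The immediate early genes, which neurons and other cells switch on within minutes of activity or stress, were lower in WT3. Of 38 such genes at TPM 1 or more, 28 had their lowest scaled count in WT3, against 22.0% of all 19690 genes at that level. NPAS4 (ENSDARG00000055752), a transcription factor induced by neuronal activity, had 3214, 4019, 554, 2553 and 2954 scaled counts in WT1, WT2, WT3, WT5 and WT6 (CV 48.6%, and 19.4% without WT3). FOS had 1336, 1449.5, 291, 1204 and 1487 (CV 42.9%, and 9.31% without WT3). The related egr4, named after its values were seen, had 1036, 1048, 303, 810.0 and 902. Not all members moved, as maff had a CV of 3.39% and NR4A2 (ENSDARG00000017007) 4.41%, and NR4A2 was highest in WT3 at 1167 against 1033 to 1109 in the others.

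Globin and yolk genes set 1 clutch apart each. The alpha globin hbae1.3 had 1245, 1068, 1193, 149.7 and 1298 scaled counts in WT1, WT2, WT3, WT5 and WT6, so WT5 was low, and its near copy hbae1.2 had 1718, 1459, 1383, 3272 and 1505, so WT5 was high. In the third alpha globin, hbae3, no clutch stood out, with 2113, 2106, 2218, 2100.3 and 2049 (CV 2.91%). Reads that match several globin genes were divided by an estimate, so the split between hbae1.2 and hbae1.3 is uncertain. The vitellogenin vtg1, a yolk precursor that females make in the liver, had 144, 91.3, 159, 203 and 1552, and vtg5, vtg7 and vtg2 were likewise highest in WT6, with 527, 392 and 476 scaled counts against at most 70.4 in the other clutches. In spite of this, the yolk list held only 0.00502% of TPM in WT6.

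Among the other processes, members from the steadiest and the least steady end of each list are given. In the cell cycle list, the proliferation marker mki67 had 2298, 2302, 2215, 2318 and 2296 scaled counts (CV 1.78%) and CCND1, cyclin D1, a CV of 2.46%, while the replication clamp PCNA and the kinesin cenpe reached 12.9% and 13.6%. In the circadian list, the kinase csnk1e and the output factor dbpb had CVs of 2.08% and 3.12%, and the repressors nr1d4b and BHLHE41 17.3% and 20.01%. Among heat shock proteins, HSP90AB1 and HSPD1 were steady (1.93% and 2.48%) and the collagen chaperone SERPINH1 (ENSDARG00000019949) and hsc70 were not (21.9% and 26.7%). In cholesterol synthesis, FDPS had 5.08% and SREBF1 and DHCR7 had 12.8% and 15.3%. The acute phase gene serpina1l, a liver product, reached 34.1%, with 2496 scaled counts in WT1 and 1009 in WT5, and fga and serpina1 29.1% and 19.6%. The interferon target b2ml stayed at 7.23%, and 10 of 48 interferon genes reached TPM 1, against 60.5% of all genes.

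The steadiest gene was hpca, hippocalcin, a calcium sensor of neurons, with scaled counts of 2235, 2246, 2228, 2226 and 2223 in WT1, WT2, WT3, WT5 and WT6. Its CV of 0.418% is below the 2.12% that counting error alone would give. SUPT16H, a histone chaperone, had 1831, 1818, 1809, 1823 and 1831 (CV 0.499%), and NDFIP2, an adaptor of ubiquitin ligases, 3102, 3105, 3114, 3073 and 3107 (CV 0.509%). The rest of the 20 steadiest genes, among them RUNDC3A, YWHAB, CLTC, atp1b3a, CBX1, UFD1, MADD, ZBTB16, ube2nb and APP, had CVs of up to 1.21%. Of the 100 steadiest genes, 92 had a CV below counting error, as had 8.55% of the 5927 genes. The 100 were chosen for the lowest CV in these same libraries, so that count follows largely from the choice. On no list were 97 of the 100, against 86.1% of the 5927.

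The names at this end are not firm. In the mutant libraries hpca had a CV of 11.5%. The 100 steadiest genes had a median CV of 8.01% there, against 11.1% for all 5927 genes, and 28 of them lay above that median. Only 1 of them was among the 100 of these 5927 genes that were steadiest in the mutant. With library size in place of TMM factors, 0 of the 20 steadiest genes kept a place among the 20 and their median CV was 3.02%, and with TPM also 0 did and the median CV was 6.87%. The members just inside and just outside the 20 were APP (1.21%) and GANAB (1.24%). At the other end apoa4b.1 (49.2%) was just inside the 20 least steady genes and SLC6A19 (48.7%) just outside.

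Genes that are often used as references in qPCR differed in steadiness, and all of them are given here whatever their level. TBP, POLR2D, LSM12 and 1 EEF1A1 copy had mean scaled counts between 255 and 404, under the floor of 500. The CVs of TBP, POLR2D and LSM12 (3.47%, 2.71% and 4.99%) were below their counting error of 5.04%, 4.97% and 5.26%. Their low CVs therefore do not show them to be steadier than the others. The beta actins actb2 and actb1 had CVs of 3.46% and 3.95% at means of 2142 ± 112 and 751.5 ± 28.4 TPM (SD, n = 5). The cyclophilins ppiab and ppiaa had 4.08% and 5.24%, lsm12b 4.30%, TBP 3.47% and eef1a1l1 5.93%. The ribosomal protein genes RPL11, RPS18, RPLP0, RPL13, RPL13A and RPL8 lay between 9.06% and 11.2%. GAPDH (ENSDARG00000043457) was the least steady of the 31, with 38983, 39590.5, 24060.5, 21212 and 25472 scaled counts in WT1, WT2, WT3, WT5 and WT6 (CV 29.3%), while GAPDHS had 7.31%. The gene b2m had only 22.7 scaled counts on average, so its CV of 17.9% is close to the 21.0% of counting error. The symbols LSM12, POLR2D, TMEM50A, MOB4, UBE2A, ARNT2, TUBA1A, tuba1b, SDHA, HPRT1 and EEF1A1 had CVs between 2.71% and 9.12%.

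**Figure D5:**
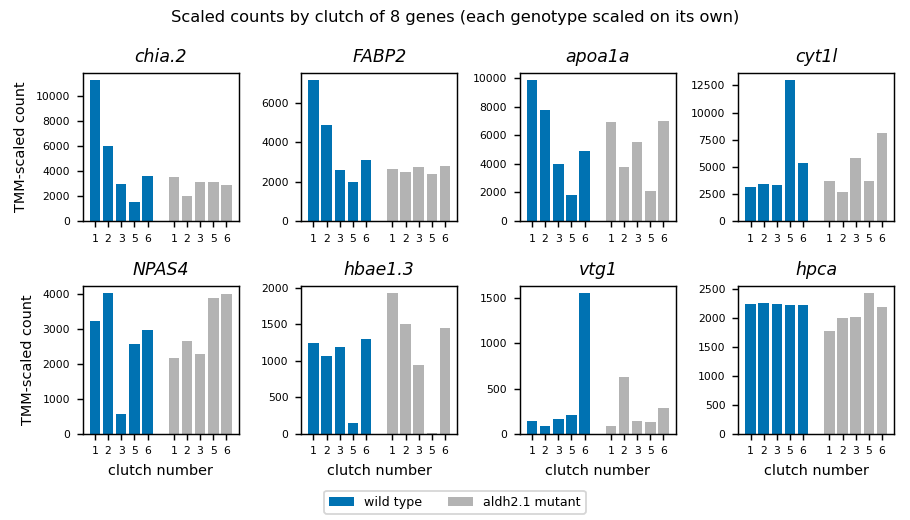
TMM-scaled counts by clutch of 8 genes in the 5 wild-type (blue) and 5 aldh2.1 mutant (grey) libraries, with the axis from 0 and each genotype scaled on its own. The digestive and lipid genes chia.2, FABP2 and apoa1a are highest in WT1, cyt1l is high in WT5 (12979), NPAS4 is low in WT3 (554), hbae1.3 is low in WT5 (149.7), vtg1 is high in WT6 (1552), and hpca is level across the wild type.

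Zebrafish carry many genes in a and b copies that remain from a genome duplication. Of 702 pairs told apart by symbol, both copies reached TPM 1 in 447, only 1 in 177 and neither in 78. Where both did, the major copy held a median of 70.5% of the TPM of the pair, over 90% in 43 pairs and under 60% in 110. In muscle, actc1b held 99.2% of its pair with actc1a (123 TPM), and actc1c, outside the pair, had 901 TPM. In contrast, ckma and ckmb, creatine kinases that buffer ATP, were near balance with 54.5% in ckmb. Of the cyclophilin pair ppiaa held 86.1%, and of the apolipoprotein pair apoa1b held 68.7%.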

How the data were processed

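Whole larvae were sequenced on the BGISEQ-500 platform from RNA extracted with a column kit. The authors deposited, per library, estimated counts per gene (not normalized, 57.2% to 58.3% whole numbers in the wild type) and TPM values for 32520 genes. The submitters' processing notes name the genome build GRCz11, Trim Galore 0.6.4 and kallisto 0.4.6, and how transcripts were joined to genes is not given in the sources used here. Gene symbols came from a name table that mixes human and zebrafish symbols (29201 genes with a symbol), so some copies share a symbol and carry their identifier.

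Groups and replicate numbers came from the labels, and that each library is 1 clutch came from the paper. Shares, means and SDs were computed on TPM as deposited. Estimated counts were rounded for edgeR 4.0.16 (R 4.3.3), whose TMM factors for the wild-type libraries scaled the unrounded counts. Genes with a mean scaled count under 500 were left out of the ranking and summaries of the CV (reference genes under it are given with their CV), and counting error was taken as the inverse square root of the mean. With 20192749 to 20435791 counts per wild-type library, counting error had a median of 3.07% over the 5927 genes that reached that floor. Of these, 507 had a CV below their own counting error. The main tests between the 2 genotypes were two-sided exact permutation tests of single values per library, with clutches as the units. Those of the list shares were adjusted by Benjamini-Hochberg over 33 lists, and the number of expressed genes was tested on its own. An exact sign-flip test on equal replicate numbers was run as an alternative. The CV step was tested on simulated data. The replicate numbers are shared between genotypes, but the labels do not say that equal numbers belong together. Equal numbers did not deviate together (r of 0.0834, -0.207, -0.125, 0.201 and -0.138 for numbers 1, 2, 3, 5 and 6), so the main tests did not use them as pairs.

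Named genes are the 30 highest by mean TPM, up to 4 leading members of each tissue and housekeeping list, the 20 steadiest and 20 least steady genes with a symbol, the 2 steadiest and 2 least steady members of each process list, all qPCR reference genes, hormone genes at TPM 1 or more, aldh2.1 and aldh2.2. The lists and rules were chosen with earlier results of these data known. Alternatives were other thresholds, counts, totals without mitochondrial genes, DESeq2 1.42.0 size factors, library size, TPM, other floors, log2 CPM, a replicate block and leaving out each library. Some genes that the rule names are not reported here. Sequences and coordinates were not used here. All other steps ran in Python 3.11.15 (pandas 2.3.3 on numpy 2.4.6), and figures used matplotlib 3.10.9.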

Additional observations from a re-analysis of the deposited data

Results flagged for a closer look

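In 115 sets of 5 wild-type values (library totals, list shares, the 30 leading genes and the 40 steadiest and least steady genes), 7 held a library far from the other 4 by Dixon's criterion at the 95% level (critical value 0.71 for 5 samples). At that level chance flags about 1 set in 20 where sets are independent and not chosen by their spread. These sets share libraries and 40 were so chosen, so 7 of 115 cannot be set against that rate, and no excess over chance is claimed. The 40 genes were chosen by the spread of these same values, so the separated libraries in cyt1l, krt1-19d, NDFIP2 and SH3BGRL3 are descriptions. The exocrine pancreas held 0.0537% of TPM in WT5, against 0.0976% in the nearest library. The yolk list held 0.00502% in WT6, against 0.00065% in the nearest. Cholesterol synthesis genes held 0.0222% in WT3, against 0.0244% in the nearest, on a scale that the mitochondrial share of WT3 lowers for all nuclear genes. The keratin cyt1l had 12979 scaled counts in WT5, against 5306 in the nearest library. The keratin krt1-19d had 2862 in WT3, against 1267 in the nearest. In the steady genes NDFIP2 and SH3BGRL3 the separated values were 3073 scaled counts in WT5 and 2385 in WT2, against 3102 and 2438 in the nearest libraries.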

How the results depend on the processing

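The number of expressed genes stayed within 1.5 times of 19690 under every threshold tried, from 16393 (mean TPM 2) to 22089 (mean TPM 0.5), with 17614 at TPM 1 in every library, 21443 at a mean count of 10, and 19646 to 19809 without single clutches. The share of the 10 leading genes was 14.7% of counts and 12.1% of TPM outside the mitochondrial genome in place of 30.2%, and 28.6% to 31.2% without single clutches. The tissue lists together held 20.9% of counts, 25.7% of TPM outside the mitochondrial genome and 14.3% of TPM without the leading member of each list in place of 17.9%, and 17.4% to 18.5% without single clutches. The number of genes with a CV over 30% was 106, and it was 407, 28 or 6474 at a floor of 100, of 2000 or of 1 count, where more or fewer genes enter. It was 103 with library size, 106 with DESeq2 size factors, 119 with TPM, 107 on the log2 CPM scale and 97 to 130 without single clutches. Of the 20 least steady genes, 19 remained with library size, 20 with DESeq2 size factors, 17 with TPM and 8 without WT1, and 2, 9 and 0 were among the 20 at a floor of 100, of 2000 and of 1 count. Of the 20 steadiest, 18 remained with DESeq2 size factors and 5 to 9 without single clutches.

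The replicate block took equal replicate numbers as pairs (exact sign-flip test, smallest p of 0.0625). With it the difference in expressed genes remained -221 (exact sign-flip test, p = 0.562). Of the lists, 0 passed the adjusted threshold and 0 had an unadjusted p under 0.05. Without single clutches that difference ranged from -385 to -20.8 genes, and 0 lists passed in any case, with between 0 and 7 at an unadjusted p under 0.05 and the smallest adjusted p, 0.0873, without mutant clutch 5. On the count scale 0 lists passed, with 1 at an unadjusted p under 0.05. As limits, 5 pools show the spread between clutches only roughly, and list shares rest on symbols that could be matched.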
